A study of Mus musculus with 6 samples.

Results

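Chemokine and chemoattractant receptors were followed in bulk RNA of flow-sorted microglia, which are brain-resident macrophages, from 3XTg-AD mice. The set holds 9 genes (Cx3cr1, Ccr1, Ccr7, Cxcr3, Cxcr4, Cxcr6, Ccrl2, Fpr1 and Fpr2), found by their symbols among 24956 gene rows of the deposited count table. All 6 libraries came from 3XTg-AD mice, which carry mutant human APP and MAPT transgenes, and no library came from a strain without these transgenes. The mice were 7 months old. In the isotype group (libraries 1 to 3) they received an isotype control antibody, and in the anti-NK1.1 group (libraries 1 to 3) an antibody that depletes natural killer (NK) cells, at 25 µg every 4 days for 4 weeks. The labels do not give the sorting gate, nor whether each library holds RNA of 1 animal or of several pooled, so p-values here reflect the spread among these libraries, which may be partly technical.

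These receptors are G protein-coupled receptors of the cell surface that steer leukocytes along gradients of chemokines or of bacterial and tissue-damage peptides. Most couple to the inhibitory G protein Gi, whose released subunits activate phospholipase C beta, phosphoinositide 3-kinase gamma and the small GTPase Rac, which reorganises actin. In the brain, Cx3cr1 is the receptor of microglia for fractalkine (Cx3cl1), a membrane-bound chemokine of neurons that ADAM proteases shed. Fpr1 and Fpr2 sense formylated peptides and annexin A1 and are abundant in neutrophils, while Cxcr3, Cxcr6 and Ccr7 are best known from T cells, NK cells and dendritic cells.

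None of the 9 receptors differed between the groups beyond the spread of the libraries when all 6 libraries were compared. Cx3cr1 was the most abundant of the 9 in every library, followed by Fpr1, Ccrl2, Ccr1 and Fpr2 in changing order. Within the anti-NK1.1 group the receptors separated by library. Cx3cr1 was low in anti-NK1.1 1 and 3 and high in anti-NK1.1 2, whereas Fpr1 was low in anti-NK1.1 1 and 2, and Fpr2 and Ccrl2 were lowest in anti-NK1.1 2 and within or above the isotype range in anti-NK1.1 3.

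The genes lie in a few chromosomal groups (coordinates from GENCODE M21 on GRCm38, which is mm10). Cx3cr1 (119901616 to 120069879, minus strand), Ccrl2 (111054486 to 111057519, minus strand), Cxcr6 (123806475 to 123811760, plus strand) and Ccr1 (123962124 to 123968692, minus strand) are on chromosome 9. Xcr1 lies between Cxcr6 and Ccr1, and Ccr3 and Ccr2 follow Ccr1. Fpr1 (17876471 to 17883940, minus strand) and Fpr2 (17887824 to 17893952, plus strand) are neighbours on chromosome 17 that point away from each other, with 3883 bp between them. Ccr7 (99144196 to 99155077) is on chromosome 11, Cxcr4 (128588199 to 128592293) on chromosome 1 and Cxcr3 (101731535 to 101734269) on the X chromosome, all on the minus strand. The span of Cx3cr1 is long because an annotated transcript extends past 8 other genes, and Cxcr6 lies within the span of Fyco1, which is on the opposite strand, so reads from unspliced Fyco1 RNA cannot be told apart from Cxcr6 reads without strand information.

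RefSeq promoter sequences (GRCm38.p6) were found for 8 of the 9 genes, in 10 windows. The 250 bases before the start site are shown for Cx3cr1, which took the largest part of the receptor signal, for the adjacent Fpr1 and Fpr2, which lay low or high in largely the same libraries, and for Cxcr4, which was high in 1 library. Capitals mark TATAAA on either strand, and each sequence runs 5′ to 3′ on the strand of the gene.
Cx3cr1, chr9:120068297-120068546, minus strand: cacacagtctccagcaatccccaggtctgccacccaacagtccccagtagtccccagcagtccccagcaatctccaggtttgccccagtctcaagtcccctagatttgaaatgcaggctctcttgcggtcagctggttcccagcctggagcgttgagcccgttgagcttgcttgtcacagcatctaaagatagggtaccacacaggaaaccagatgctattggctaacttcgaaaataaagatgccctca
Fpr1, chr17:17883940-17884189, minus strand: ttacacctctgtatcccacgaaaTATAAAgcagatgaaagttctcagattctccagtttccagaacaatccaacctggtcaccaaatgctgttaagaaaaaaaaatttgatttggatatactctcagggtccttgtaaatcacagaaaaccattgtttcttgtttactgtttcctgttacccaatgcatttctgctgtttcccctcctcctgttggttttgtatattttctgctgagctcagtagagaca
Fpr2, chr17:17887574-17887823, plus strand: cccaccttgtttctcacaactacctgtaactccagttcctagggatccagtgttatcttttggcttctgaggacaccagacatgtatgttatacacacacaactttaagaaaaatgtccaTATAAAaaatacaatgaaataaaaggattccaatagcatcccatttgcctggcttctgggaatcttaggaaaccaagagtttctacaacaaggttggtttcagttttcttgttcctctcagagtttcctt
Cxcr4, chr1:128592300-128592549, minus strand: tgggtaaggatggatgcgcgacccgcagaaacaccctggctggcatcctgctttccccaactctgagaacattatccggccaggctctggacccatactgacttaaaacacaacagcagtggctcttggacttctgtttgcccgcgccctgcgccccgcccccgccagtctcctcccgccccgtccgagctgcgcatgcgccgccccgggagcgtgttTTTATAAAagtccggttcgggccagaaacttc
TATAAA was found on either strand in the windows of Cxcr4, Fpr1 and Fpr2, 3 of the 10 windows, against 12.4% of 32851 RefSeq windows of the same length. In Cxcr4 the plus-strand match began 30 bases before the start and overlapped a minus-strand match, in Fpr2 it began 130 bases and in Fpr1 227 bases before the start. GAGGAAG, the core letters bound by the macrophage factor PU.1, was in 1 of the 10 windows (Cxcr3), against 10.6% of all windows, and TGACTCA, the AP-1 letters, was in 0 of 10, against 4.46%. These motifs do not overlap each other in letters, and a match describes the sequence alone.

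Between 26.9 M and 36.1 M reads per library were assigned to genes (M, 1e6). All 10 microglial marker genes were detected in every library, with summed levels of 29790 to 34850 CPM (read counts per 1e6 assigned reads, scaled with TMM factors) in isotype and 29860 to 35100 CPM in anti-NK1.1 libraries. The sort also held RNA of other leukocytes. The 16 neutrophil markers, none of them at 0 in any library, summed to 76200 to 103500 CPM in isotype libraries and to 33130, 33940 and 143200 CPM in anti-NK1.1 1, 2 and 3. The 10 NK cell markers summed to 91.1 to 132.6 CPM and 42.5 to 76.8 CPM, with Klra8 at 0 in all libraries and Ncr1 at 0 in isotype 3 and every anti-NK1.1 library. Nkg7 alone made up 53.1% to 57.1% of the isotype sums and 66.6% in anti-NK1.1 3, and Klrd1 42.8% and 45.6% in anti-NK1.1 1 and 2. Nkg7 lay below its isotype range in anti-NK1.1 1 and 2 but within it in anti-NK1.1 3 (51.2 CPM). Klrd1, Gzma and Klrb1c were lower without overlap between the groups, as were 7.59% of all tested genes. Of the 8 tested NK cell markers, 6 had a log2 change below 0 and none passed. The 2 above 0 were Klrk1 (0.29 ± 1.89, SE) and Eomes (0.32 ± 1.92). The 11 T cell markers in the table summed to 54.3 to 73.0 CPM and 55.0 to 77.1 CPM, but Il7r, which made up 44.3% to 71.8% of the isotype sums, averaged 37.1 and 16.8 CPM, while 8 of the 10 tested markers had a log2 change above 0 (median 0.99, none passed). Cd3e, Cd3d, Cd3g and Cd8b1 lay above the whole isotype range in all 3 anti-NK1.1 libraries, at group means of 2.51 and 8.38, 2.78 and 5.69, 3.16 and 6.97, and 2.40 and 6.59 CPM, as were 7.73% of all tested genes. Cd5 was at 0 in isotype 1 and every anti-NK1.1 library. Expression also varied with transcript length: across genes, the Spearman rho between length and the deviation of a library from the mean was 0.0107, 0.0209 and 0.292 in isotype 1 to 3 and -0.152, 0.210 and -0.291 in anti-NK1.1 1 to 3. In such bulk samples, fewer cells of a type and less RNA per cell cannot be told apart.

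Levels of different genes were compared per kilobase of annotated exon (CPM per kb). Cx3cr1 averaged 541 ± 56.8 CPM per kb in isotype libraries (SD, n = 3), above 99.5% of tested genes. Fpr1 followed with 191 ± 47.6, Ccrl2 with 128 ± 26.5, Ccr1 with 106 ± 16.8 and Fpr2 with 97.1 ± 20.2 CPM per kb. The isotype ranges of Fpr1 (156.1 to 246 CPM per kb) and Ccrl2 (105 to 156.7) touched, and those of Ccrl2, Ccr1 (91.8 to 124) and Fpr2 (73.8 to 111) overlapped. Within each isotype library, however, Fpr1 ranked above Ccrl2 and Ccrl2 above both Ccr1 and Fpr2, which exchanged places. Cxcr4, the receptor for Cxcl12, stood apart from both sides with 13.5 ± 1.89 CPM per kb. Cxcr3, Ccr7 and Cxcr6 were lowest, at 1.93 ± 1.08, 1.90 ± 1.68 and 1.73 ± 1.53 CPM per kb, with overlapping ranges.

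**Figure D1:**
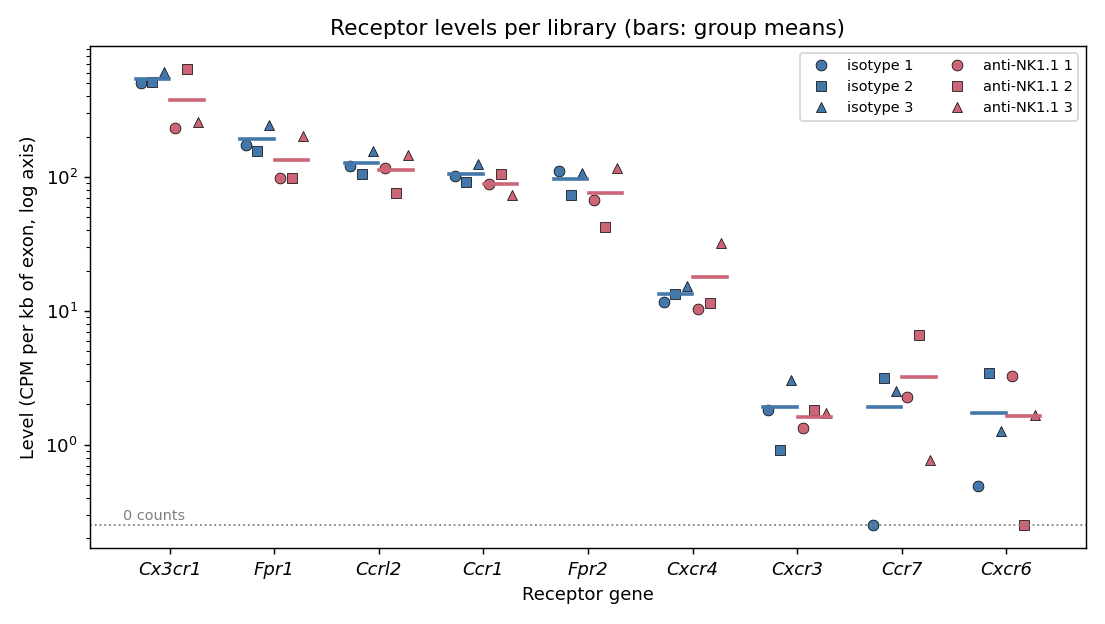
Level of each receptor gene in CPM per kb of exon (log axis) in the 3 isotype (blue) and 3 anti-NK1.1 (red) libraries, with bars at the group means and libraries without a count drawn on the dotted line. Cx3cr1 was highest in all 6 libraries, and Ccr7 in isotype 1 and Cxcr6 in anti-NK1.1 2 had 0 counts.

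The makeup of the set spread more widely over the anti-NK1.1 libraries than over the isotype libraries. Cx3cr1 made up 49.2%, 53.4% and 48.1% of the summed level per kb of the 9 genes in isotype 1 to 3. In anti-NK1.1 1 to 3 it made up 37.5%, 65.3% and 31.0%, values on both sides of the isotype range. Fpr1 and Fpr2 together took 27.7%, 23.9% and 27.9% in isotype and 26.7%, 14.2% and 38.4% in anti-NK1.1 libraries. Cxcr4, Cxcr3, Ccr7 and Cxcr6 together stayed between 1.36% and 4.33% in the 6 libraries. Cx3cr1 has 4505 nt of exon, against 1324 and 1296 nt for Fpr1 and Fpr2. The length rho given above was -0.152, 0.21 and -0.291 in anti-NK1.1 1 to 3. The part of transcript length in these shares was not tested.

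All 9 genes passed the low-count filter and were tested with edgeR's quasi-likelihood F-test among 14520 genes. None was called at an adjusted p under 0.05, as for the whole table, where 0% of genes were called. At an unadjusted p under 0.05, 0 of the 9 were lower or higher, against 3.8% of tested genes that were lower and 2.74% that were higher. DESeq2 called 0 of the 9 on the same counts, against 0.572% of all genes. The log2 change was below 0 for 7 of the 9, against 49.1% of tested genes. The median of the 9 was -0.25, beside 0.01 over all tested genes. For each of the 9 the groups overlapped, while 15.3% of tested genes had groups that did not overlap.

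Cx3cr1 had 2271, 2311 and 2733 CPM in isotype 1 to 3 and 1048, 2898 and 1165 CPM in anti-NK1.1 1 to 3. Anti-NK1.1 2 lay above every isotype library, and anti-NK1.1 1 and 3 lay below every one, at 0.43 and 0.478 times the isotype mean. The group means were 2438 ± 256 and 1703 ± 1036 CPM (SD, n = 3 each). The edgeR log2 change was -0.52 ± 0.36 (SE), with a 95% interval of -1.33 to 0.30 and an adjusted p of 0.765. Without anti-NK1.1 2 the change was -1.14 ± 0.19 and passed (edgeR adjusted p = 0.0463), in a fit in which 0.781% of genes were called lower. With each library left out in turn the change stayed below 0, from -1.14 to -0.26. Anti-NK1.1 1 and 3 were the libraries with negative length rho, and the exon length of Cx3cr1 (4505 nt) was close to the median of tested genes (4314 nt). With the length trend of each library removed the change was -0.47 ± 0.32 (edgeR adjusted p = 0.749).

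Ccr1, a receptor of myeloid cells for Ccl3, Ccl5 and related chemokines, had 289, 260 and 353 CPM in isotype 1 to 3 and 252, 300 and 207 CPM in anti-NK1.1 1 to 3. As for Cx3cr1, the highest anti-NK1.1 library was the second, but it lay within the isotype range, and the others lay below that range. The log2 change was -0.25 ± 0.23 (95% interval -0.76 to 0.26, edgeR adjusted p = 0.809). The read ratio of Cx3cr1 to Ccr1 within a library was 7.87, 8.89 and 7.75 in isotype and 4.17, 9.67 and 5.61 in anti-NK1.1 libraries, so in anti-NK1.1 1 and 3 the shortfall was larger for Cx3cr1 than for Ccr1.

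Fpr1, the high-affinity receptor for formylated peptides, had 229, 207 and 325 CPM in isotype 1 to 3 and 131, 129 and 268 CPM in anti-NK1.1 1 to 3. Anti-NK1.1 1 and 2 lay below every isotype library and anti-NK1.1 3 within the isotype range. Its log2 change was -0.52 ± 0.33 (95% interval -1.26 to 0.21, edgeR adjusted p = 0.748). Without anti-NK1.1 3 it was -0.96 ± 0.27, which did not pass either (edgeR adjusted p = 0.623).

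Fpr2, which binds annexin A1, the cathelicidin Camp and serum amyloid A, had 143, 95.6 and 138 CPM in isotype 1 to 3, against 87.0, 54.5 and 153 CPM in anti-NK1.1 1 to 3. Anti-NK1.1 1 and 2 were again below every isotype library, and anti-NK1.1 3 was above every one. The log2 change was -0.36 ± 0.36 (95% interval -1.17 to 0.45, edgeR adjusted p = 0.821), and -0.83 ± 0.32 without anti-NK1.1 3 (edgeR adjusted p = 0.738). Fpr2 counts are uncertain, since 20.9% of the 75-base windows in its annotated transcripts also occur in transcripts of Fpr3 or Gm5966. Fpr3 was listed at 0 counts in all libraries. Fpr1 shared no 75-base window with another gene.

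Ccrl2, an atypical receptor that binds chemerin (encoded by Rarres2) without G protein signalling, had 314, 273 and 407 CPM in isotype 1 to 3, against 301, 197 and 379 CPM in anti-NK1.1 1 to 3. Anti-NK1.1 2 alone lay below the isotype range. The log2 change was -0.18 ± 0.28 (95% interval -0.80 to 0.45, edgeR adjusted p = 0.884), and 0.037 ± 0.24 without anti-NK1.1 2.

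Neutrophil RNA moved with part of this pattern. S100a8, a granulocyte alarmin, was at 0.423 and 0.372 times the isotype mean in anti-NK1.1 1 and 2 and at 1.69 times in anti-NK1.1 3. Fpr1 was at 0.516, 0.511 and 1.06 times and Fpr2 at 0.691, 0.433 and 1.21 times in the same libraries, while Ccrl2 was at 0.910, 0.596 and 1.14 times. All 16 neutrophil markers lay below their isotype mean in anti-NK1.1 1 and 2, but in anti-NK1.1 3 only 9 lay above it. The other 7 there were Csf3r (213 CPM, isotype mean 367), Cxcr2, Mpo (487, mean 983), Elane, Prtn3, Mmp9 and Ltf. Anti-NK1.1 3 had the most negative length rho (-0.291). The 9 have 522 (S100a9) to 2623 nt (Lcn2) of exon. Of the 7, Cxcr2, Mpo, Ltf, Mmp9 and Csf3r have 3048 to 3609 nt, but Elane and Prtn3 have 984 and 1732 nt. Fpr1 and Fpr2 have 1324 and 1296 nt, and the part of transcript length in this pattern was not tested. All 16 had a log2 change below 0 (median -0.47), and none passed. Within the isotype group the markers were mixed. In isotype 3, where Fpr1 was highest (1.28 times the isotype mean), 6 of the 16 markers lay above their isotype mean and 10 below. Cxcr2 was among the 6 (1.34 times) and S100a8 among the 10 (0.793 times). The part of neutrophil RNA in the Fpr1, Fpr2 and Ccrl2 values was not tested.

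**Figure D2:**
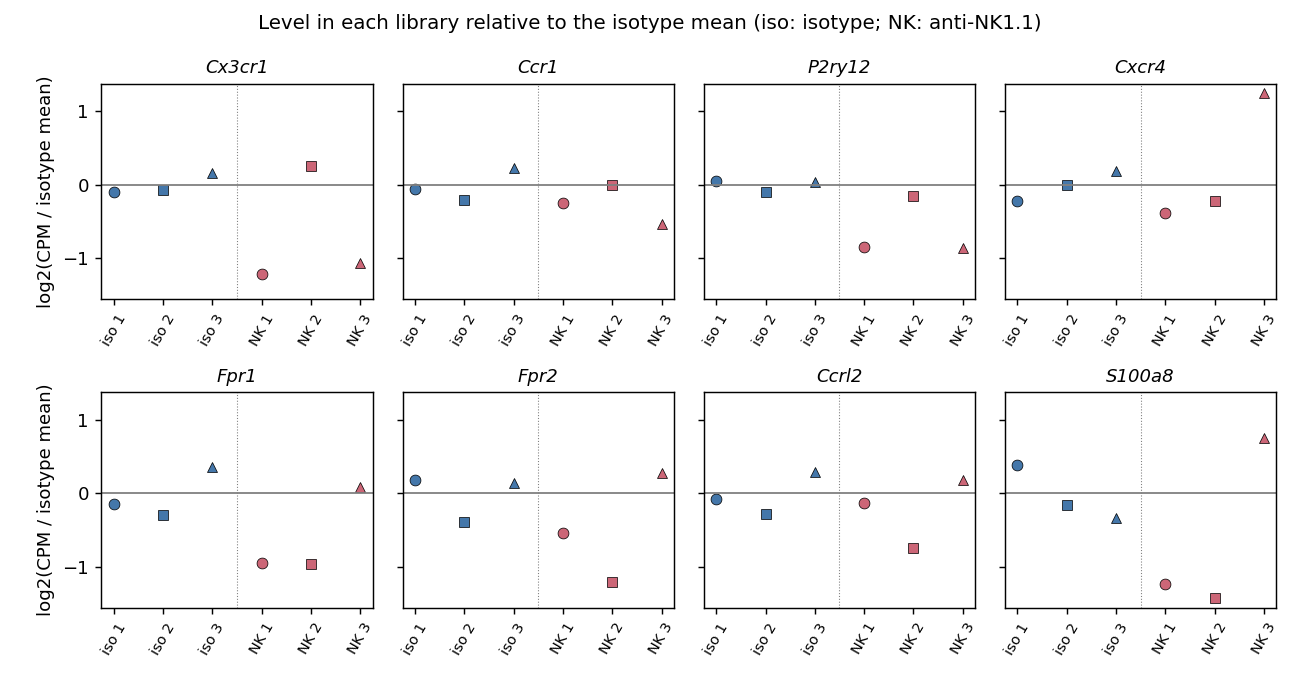
Level of 8 genes in each library on a log2 scale relative to the isotype mean, for 3 isotype libraries (blue) and 3 anti-NK1.1 libraries (red). Cx3cr1, Ccr1 and P2ry12 were lower in anti-NK1.1 1 and 3 than in anti-NK1.1 2, while Cxcr4, Fpr1, Fpr2, Ccrl2 and the neutrophil gene S100a8 were highest of the anti-NK1.1 libraries in anti-NK1.1 3.

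Cxcr4, which retains leukocytes where Cxcl12 is produced, had 21.0, 24.2 and 27.8 CPM in isotype 1 to 3, against 18.7, 20.8 and 57.7 CPM in anti-NK1.1 1 to 3. Anti-NK1.1 3 lay at 2.37 times the isotype mean and the other anti-NK1.1 libraries were below every isotype library. The log2 change was 0.41 ± 0.45 (95% interval -0.61 to 1.43, edgeR adjusted p = 0.838), and without anti-NK1.1 3 it was -0.30 ± 0.37, so the direction rested on that library. It was also the library with the highest neutrophil marker sum, of which S100a8, S100a9 and Ngp made up 81.4%, while 7 of the 16 markers lay below their isotype mean. The part of neutrophil RNA in the Cxcr4 value was not tested. Anti-NK1.1 3 also had the most negative length rho (-0.291), and Cxcr4 is short (1808 nt of exon, median of tested genes 4314 nt). With the length trend of each library removed the log2 change of Cxcr4 was 0.14 ± 0.43 (edgeR adjusted p = 0.953).

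The receptors of lymphocytes and dendritic cells were scarce, above 38.3% to 40.2% of tested genes per kb in isotype libraries, and uneven between libraries. Ccr7, which guides cells to lymph nodes along Ccl19 and Ccl21, had 0, 202 and 192 counts in isotype 1 to 3 and 119, 447 and 38 counts in anti-NK1.1 1 to 3. The 0 in isotype 1 allows a level of up to 0.0837 CPM (3 counts). Pooled and scaled by depth, anti-NK1.1 libraries had 1.82 times the isotype counts (95% exact interval 1.60 to 2.08, which covers counting error only). Between libraries the spread was far wider, with an edgeR log2 change of 0.76 ± 1.41 (95% interval -2.40 to 3.92, adjusted p = 0.901). Without anti-NK1.1 2 the log2 change was -0.33, and limma-voom gave 2.72.

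Cxcr3, the receptor of effector T and NK cells for Cxcl9 and Cxcl10, had 112, 51 and 203 counts in isotype and 61, 108 and 75 counts in anti-NK1.1 libraries. All anti-NK1.1 libraries lay inside the isotype range. Its log2 change was -0.25 ± 0.81 (95% interval -2.06 to 1.57, edgeR adjusted p = 0.950), and 0.26 without isotype 3. Cxcr6, the receptor for Cxcl16 on tissue-resident T and NK cells, had 34, 214 and 93 counts in isotype and 168, 0 and 81 counts in anti-NK1.1 libraries. The 0 in anti-NK1.1 2 allows up to 0.0876 CPM, and the log2 change was -0.07 ± 1.47 (95% interval -3.38 to 3.24, edgeR adjusted p = 0.992). Its sign turned without isotype 2 (0.91) and without anti-NK1.1 2 (0.51), and limma-voom gave -2.23. Even for Cxcr3, with the narrowest interval of these 3 genes, the fold change could lie anywhere between 0.239 and 2.97, so differences of that size were not detectable here. Of the marker lists given above, 8 of 10 tested T cell markers had a log2 change above 0 and 6 of 8 tested NK cell markers below 0, and their part in these receptor values was not tested.

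**Figure D3:**
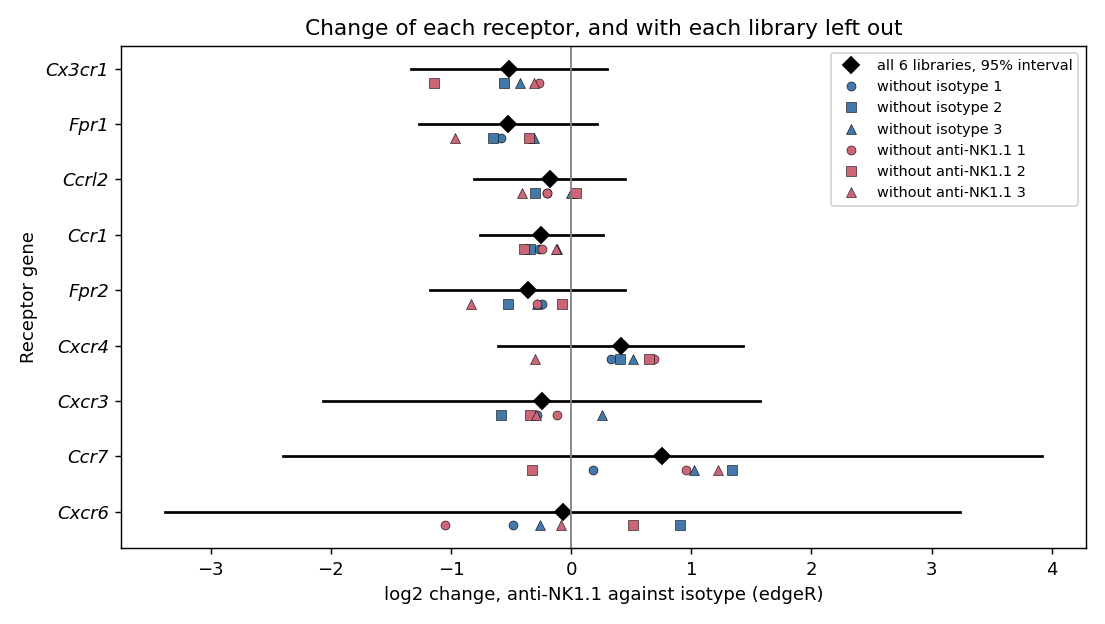
Log2 change of each receptor, anti-NK1.1 against isotype, with the 95% interval from all 6 libraries (black diamonds and lines) and the value with each library left out (coloured symbols). All 9 intervals include 0, and leaving out anti-NK1.1 2 moved Cx3cr1 from -0.52 to -1.14.

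Ligands of these receptors were read from a list of 19 genes, of which 17 were tested. Of these, 10 had a log2 change above 0 and 7 below, the median was 0.03, and none passed. Cxcl16, the membrane-bound ligand of Cxcr6, had 68.3, 78.5 and 67.8 CPM in isotype 1 to 3, against 162, 87.0 and 133 CPM in anti-NK1.1 1 to 3. Every anti-NK1.1 library lay above every isotype library, with a log2 change of 0.83 ± 0.27 (edgeR adjusted p = 0.727). Cx3cl1, the ligand of Cx3cr1, was scarce, with 5.63 ± 0.816 and 10.5 ± 3.73 CPM (SD, n = 3 each) and a log2 change of 0.90 ± 0.51. Cxcl12, the ligand of Cxcr4, had 1.18 ± 0.756 and 5.10 ± 3.55 CPM and a log2 change of 2.11 ± 0.98. For these 3 ligands the groups did not overlap, as for 7.73% of all tested genes in that direction.

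The inflammatory ligands were abundant and uneven. Ccl3 and Ccl4, ligands of Ccr1, averaged 524 ± 42.4 and 762 ± 173 CPM in the isotype group, against 499 ± 154 and 690 ± 478 CPM in the anti-NK1.1 group (SD, n = 3 each). Ccl5 had a log2 change of 0.02 ± 0.28. The Cxcr3 ligands Cxcl10 and Cxcl9 had log2 changes of -0.59 ± 0.39 and -1.16 ± 0.99. Rarres2, the source of chemerin for Ccrl2, had 0.14 ± 0.38. Anxa1, the annexin ligand of the formyl peptide receptors, had 1191, 1108 and 1306 CPM in isotype and 347, 627 and 1554 CPM in anti-NK1.1 libraries, below the isotype range in anti-NK1.1 1 and 2 and above it in anti-NK1.1 3.

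Among 32 other chemoattractant receptors, 21 were tested, and 15 of them had a log2 change below 0, with a median of -0.39 and none past the threshold. For 5 of the 21 the groups did not overlap, all lower in anti-NK1.1 libraries, where 7.59% of all tested genes were of that kind. Among them were Ccr2, a monocyte receptor (-1.68 ± 0.43), Cxcr2, the neutrophil receptor for CXC chemokines (-0.94 ± 0.30), P2ry12, through which microglia follow ADP (-0.58 ± 0.23), and Gpr183, an oxysterol receptor (-0.39 ± 0.20). The smallest edgeR adjusted p of the list was 0.714. The complement receptors C5ar1 and C3ar1 had log2 changes of -0.12 ± 0.35 and -0.19 ± 0.25, the chemerin receptor Cmklr1 had 0.16 ± 0.34 and the Cxcl12 scavenger Ackr3 had -0.62 ± 0.60. In anti-NK1.1 3, Cxcr2 was at 0.635 times and Fpr1 at 1.06 times the isotype mean.

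Of 31 tested genes that carry or dampen the signal of these receptors or shed a ligand, 24 had a log2 change below 0. The median was -0.23 and none passed the threshold. Elmo1 and Dock2, partners that activate Rac, had -0.94 ± 0.28 and -1.65 ± 0.58. Plcb2, a phospholipase C beta, averaged 24.0 ± 1.01 CPM without and 12.1 ± 0.870 CPM with depletion (SD, n = 3 each), and its log2 change was -0.99 ± 0.34. Gnai3, a Gi alpha subunit, had -0.77 ± 0.28, and Adam17, a protease that sheds Cx3cl1, had -0.94 ± 0.44. Of the 31 genes, Elmo1, Plcb2 and Gnai3 were lower without overlap between the groups and Gnb1, a G protein beta subunit (0.22 ± 0.21), higher, beside 7.59% and 7.73% of all tested genes. Elmo1 and Dock2 have long transcripts (12580 and 11425 nt of exon) and were lowest in anti-NK1.1 1 and 3, the libraries with negative length rho. With the length trend of each library removed their log2 changes were -0.75 ± 0.20 and -1.46 ± 0.44, those of Plcb2 and Adam17 -0.74 ± 0.34 and -0.77 ± 0.34, and that of Gnai3 -0.81 ± 0.27. Other long genes of the list came closer to 0, such as Arrb1 (-0.49 to -0.19) and Plcb3 (-0.32 to -0.07). Among those that changed sign were Grk5 (-0.26 to 0.09), Rgs1 (-0.14 to 0.14) and Pik3r5 (-0.17 to 0.01). Before that removal the smallest edgeR adjusted p of the list was 0.727.

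**Figure D4:**
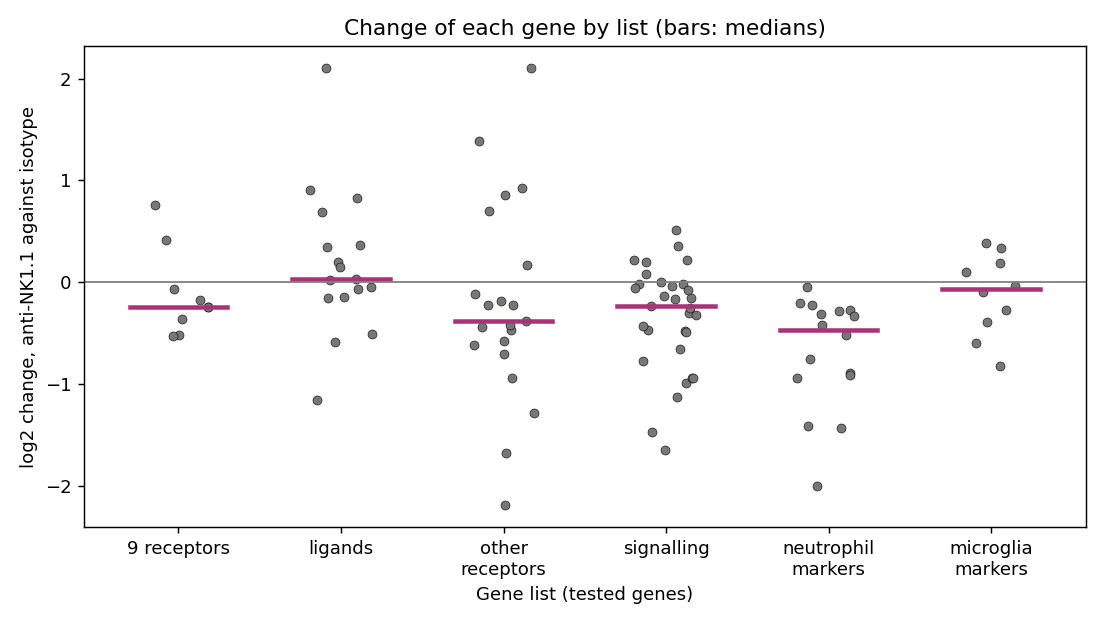
Log2 change of each tested gene, anti-NK1.1 against isotype, for the 9 receptors and 5 related gene lists, with bars at the list medians and sideways scatter only to separate the points. Medians were -0.25 for the 9 receptors, 0.03 for ligands, -0.39 for other receptors, -0.23 for signalling genes, -0.47 for neutrophil markers and -0.07 for microglial markers, and no gene in these lists passed the adjusted threshold.

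The genes whose levels ran most like each receptor over the 6 libraries were sought among 143 genes of the same lists by Pearson's r of log2 CPM, as a description over libraries that share group, depth and cell makeup. For Cx3cr1 they were Pik3cg (r = 0.973) and Il7r (0.973), and for Ccr1 Adam17 (0.946) and Gpr34 (0.938), a microglial receptor. For Fpr2 and for Ccrl2 they were Cdc42, a GTPase of cell polarity (0.964 and 0.971), and C5ar1 (0.960 and 0.923). For Fpr1 they were Rgs18 (0.948) and Gzmb (0.944), and for Cxcr4 Arrb2, an arrestin that desensitises receptors (0.959), and Rac2, the Rac of blood cells (0.884). The scarcer receptors came with Cmklr1 (0.955) and Vpreb3 (0.847) for Ccr7, Grk3 (0.831) and Grk5 (0.744) for Cxcr3, and Rgs19 (0.876) and Cd2 (0.804) for Cxcr6. Ccr7 and Cxcr6 have 1 library each at 0 counts and Gzmb has 2, and the log2 values there are set by the prior count. Cmklr1 had 17.7 CPM in isotype 1, where Ccr7 was at 0, and 31.1 to 34.3 CPM in the others.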

How the data were processed

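RNA was measured by bulk sequencing of sorted microglia in 3 isotype and 3 anti-NK1.1 libraries. Per the labels' protocols, Trizol-LS was used for total RNA, SMART-seq v4 for cDNA and Nextera XT for libraries, sequenced as single-end reads of 75 bp. The submitters' processing notes name STAR 2.5.3a, Cufflinks 2.0, DESeq2 1.1 and mm10; how reads were assigned to genes, with which annotation and strand, is not stated in the sources at hand. The deposited values, whose file is called normalized, are whole-number read counts with different totals per library. These kits add no molecular identifiers, so count floors and the exact interval of a pooled ratio cover counting error only. Reads in no feature (53.3% to 57.4%) and ambiguous reads stayed out of totals and tests, as did 26 rows with calendar dates in place of symbols.

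Genes were filtered with filterByExpr (14520 kept), scaled with TMM and given to edgeR 4.0.16 (R 4.3.3), whose quasi-likelihood F-test was run two-sided on a model of group alone. P-values were adjusted by Benjamini-Hochberg across the whole tested table, with calls at 0.05. The SE is the absolute log2 change divided by the square root of F, and edgeR intervals reflect the spread between libraries, with the moderated degrees of freedom. The test was also run on simulated counts, which were given less spread between libraries than was fitted to these data. That run does not show how the test performs on libraries as uneven as these. Alternatives were DESeq2 1.42.0, limma 3.58.1 (voom), 2 other normalizations, 2 other filters, a replicate block, removal of the length trend, and libraries left out. With 3 libraries a group, exact permutation gives no p under 0.1 and was not used. No library pair was identical. Exon lengths are the merged exons of GENCODE M21, found for 99.1% of tested genes.

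The members and gene lists were chosen with earlier results of these data known. Beside the 9 members, the text names from the lists of ligands, other receptors and signalling genes the 5 tested genes of smallest p in each, a fixed set of ligands and receptors, and for each member the 2 genes with the highest r. Some items under this rule or in the strain's description are not reported here. Other genes named with values were chosen after their values were seen.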

Additional observations from a re-analysis of the deposited data

How the results depend on the processing

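With all 6 libraries, edgeR called 0 genes (950 at an unadjusted p under 0.05), DESeq2 called 83 (48 higher, 35 lower), and limma-voom called 0. Leaving out each library in turn gave 0 to 129 calls, the 129 without anti-NK1.1 2, among them Cx3cr1. The 9 receptors have 133 values under the alternatives, of which 122 kept the direction and the side of the threshold, 10 changed sign and 1 passed. Fpr1 and Fpr2 alone kept their direction under all 15 alternatives each, from -0.97 to -0.31 and from -1.20 to -0.07, and none of these passed. With a library left out, ranges were -1.14 to -0.26 for Cx3cr1, -0.33 to 1.34 for Ccr7, -0.58 to 0.26 for Cxcr3, -0.30 to 0.69 for Cxcr4, -1.05 to 0.91 for Cxcr6 (0.91 without isotype 2, 0.51 without anti-NK1.1 2) and -0.41 to 0.037 for Ccrl2. Without anti-NK1.1 1 and 3, where the lone library is assumed to vary like the isotype ones, Cx3cr1 was at 0.25, Ccr1 at 0.0023 and Cxcr4 at -0.22. Cxcr6 was at 0.048 with upper-quartile normalization. Far from the values with all libraries in edgeR, with the direction kept, were limma-voom for Ccr7 (2.72) and Cxcr6 (-2.23) and, against a lone library with 0 counts, Cxcr6 without anti-NK1.1 1 and 3 (-9.87, no bound). Removing the length trend gave Fpr1 -0.85 and Fpr2 -0.69 (edgeR adjusted p = 0.644 and 0.680). Cxcr3 and Cxcr6 were below the filter at a mean of 5 CPM.

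The labels do not say whether equal replicate numbers mark paired samples. Deviations of same-numbered libraries correlated at 0.0525, 0.0301 and -0.00377, which cannot show whether such libraries share a litter or day. With the replicate block 0 genes were called, with Cx3cr1 at -0.68 and Fpr1 at -0.59. Isotype 1, isotype 2 and anti-NK1.1 1 correlated best with the library of their own number, while isotype 3, anti-NK1.1 2 and anti-NK1.1 3 did not.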
